A study of Mus musculus with 28 samples.

Results

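The mouse mitochondrial genome holds 37 genes, 13 for proteins, 2 for ribosomal RNAs (rRNAs) and 22 for transfer RNAs (tRNAs). Their transcripts were examined in RNA-seq libraries of adipose tissue from mice with and without a knockout of Fgf13, which encodes an intracellular member of the fibroblast growth factor family. All genes whose symbol starts with mt- were taken, 37 of 55891 listed, a rule that reads the symbol and no measured value. The series holds 28 bulk libraries, 15 from control tissue of genotype WT and 13 from tissue of genotype Fgf13 KO. Epididymal white fat (ieWAT) and subcutaneous white fat (isWAT) came from the inducible form of the adipose knockout, and the constitutive form gave brown fat (BAT) and further subcutaneous white fat (sWAT). Controls and knockouts of these 4 sets were obese after 20 weeks of a high fat diet. A second epididymal set, eWAT, carries the same genotype names, and neither its knockout type nor its diet is given in the sources used here. Every set had 3 control libraries. Knockout libraries numbered 2 in BAT and isWAT and 3 in the other sets. The labels give neither the Cre driver nor strain, age or sex. Whether libraries of 1 group come from different animals is not said, so p-values measure the spread between these libraries, which may be technical.

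Mitochondrial DNA is a small circular genome present in many copies per cell. Its proteins are core subunits of respiratory complexes I, III and IV and of the ATP synthase (complex V), and they are built together with a much larger number of subunits encoded in the nucleus. Both strands are transcribed into long precursors from which tRNAs, rRNAs and mRNAs are cut, so genes on one strand start from common transcripts. Brown fat is dense in mitochondria, where uncoupling protein turns respiration into heat, whereas white adipocytes hold fewer.

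What could be read from these tables was set partly by sequence. A stretch of chromosome 1 carries nuclear copies of 7 mitochondrial genes so alike that a short read often fits both places, and the tables list these copies as genes of their own. In GENCODE M21 (GRCm38) all 7 lie on the minus strand of chromosome 1. Gm28661 (24614885 to 24615565) carries mt-Co2, Gm10925 (24613974 to 24614651) carries mt-Atp6 and Gm28437 (24613189 to 24613971) carries mt-Co3, each with 0 mismatches over its length. Gm28438 (24612775 to 24613119) differs from mt-Nd3 by 1 base, and Gm29216 (24615706 to 24616197) matches the last 492 bases of mt-Co1 with 6 mismatches. Gm28439 and Gm10222, copies of mt-Nd4 and mt-Nd4l, were at 0 in every library. The sequences below, from the GENCODE M21 transcripts and written 5′ to 3′, show how little separates a gene from its copy; capitals mark the bases that differ.
mt-Nd3: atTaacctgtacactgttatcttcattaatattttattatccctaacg
Gm28438: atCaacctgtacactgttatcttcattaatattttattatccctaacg
mt-Co1: ggTCtAAcCggaAttgttttatc
Gm29216: ggATtGGcAggaTttgttttatc
mt-Co2: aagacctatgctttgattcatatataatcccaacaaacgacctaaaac
Gm28661: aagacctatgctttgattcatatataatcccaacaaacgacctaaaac
Counted from 1 at the start of the mitochondrial transcript and with its base written first, the difference between mt-Nd3 (chrM:9459-9806, plus strand) and Gm28438 is T3C. Those between mt-Co1 (chrM:5328-6872, plus strand) and Gm29216 are T1056A, C1057T, A1059G, A1060G, C1062A and A1066T, all within the stretch shown. Bases 341 to 388 of mt-Co2 (chrM:7013-7696, plus strand) are printed for the third pair, in which the genes have no difference at all over the copy.

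The tables divided the values of such pairs differently from library to library. For mt-Nd3 the nuclear copy held more than the mitochondrial gene in every library, 62.2 to 90.9% of the pair. The copy's share of the mt-Co2 pair ran over 42.00, 15.96 and 35.3% in sWAT control and 11.8, 27.1 and 16.5% in sWAT knockout libraries. In isWAT it was 4.89, 3.57 and 6.02% in the control libraries and 0.751 and 3.78% in the knockout libraries, the lowest being the first knockout library. Gm10925 took 32.6, 10.8 and 24.4% of the mt-Atp6 pair in sWAT control and 5.92, 10.5 and 16.5% in sWAT knockout libraries, but only 0.103, 0.0398 and 0.109% in BAT control and 1.27 and 1.15% in BAT knockout libraries. Gm28437 held 6.02, 29.98 and 31.9% of the mt-Co3 pair in ieWAT control libraries, and in sWAT it was above 0 in only 1 library. How reads that fit both members of a pair were divided is not given in the sources used here, and another division moves the deposited mitochondrial value with no change in the pair's total. Each result is therefore given for the gene as deposited and, where it matters, with the copy's value added.

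**Figure D1:**
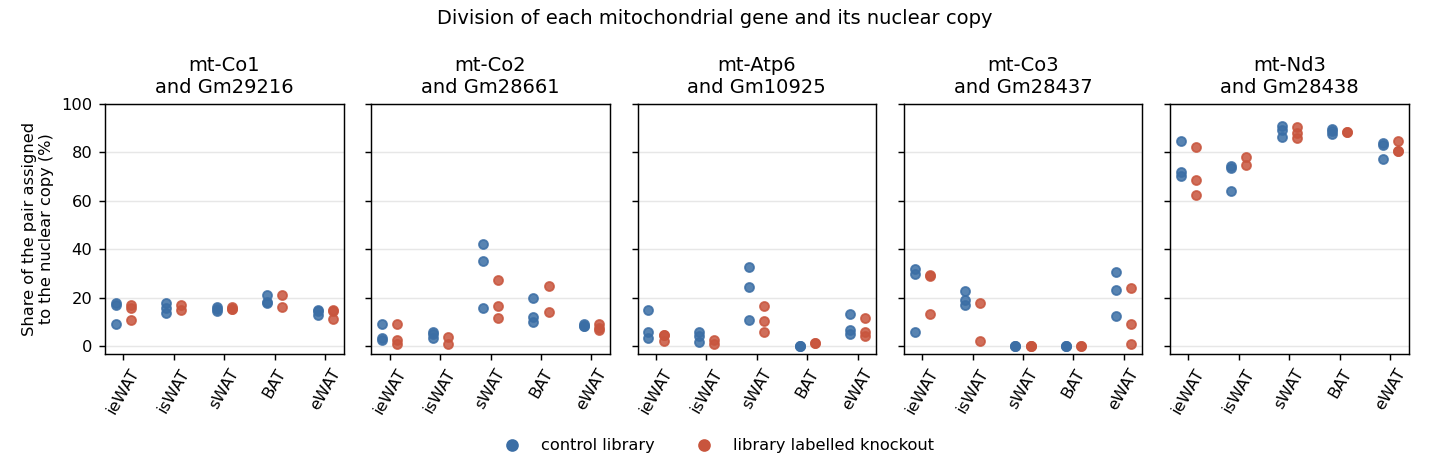
Share of each mitochondrial gene and copy pair that was assigned to the nuclear copy, in percent on the vertical axis, for every library of the 5 depots, with control and knockout libraries as separate points. The mt-Nd3 copy lies above 62% in every library, while the mt-Co2 and mt-Atp6 copies scatter from under 1% to over 30%.

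Neighbouring genes also overlap on the mitochondrial genome itself. The start of mt-Atp6 (chrM:7927-8607) lies within mt-Atp8 (chrM:7766-7969), and both are read from the plus strand. Gm10925 begins at the first base of mt-Atp6, so it carries these shared bases too, although no copy of mt-Atp8 itself is listed. The 43 bases they share are printed because values of the short mt-Atp8, 204 bases long, depend on how reads from this stretch were assigned.
mt-Atp8 and mt-Atp6: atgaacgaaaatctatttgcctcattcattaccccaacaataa
The complex I genes mt-Nd4l (chrM:9877-10173) and mt-Nd4 (chrM:10167-11544) overlap in the same way by 7 bases. On opposite strands, mt-Nd5 (chrM:11742-13565) and mt-Nd6 (chrM:13552-14070, minus strand) overlap by 14 bases. Whether counting used strand is not given in the sources used here, so reads of mt-Nd6, the single minus-strand protein gene of this genome, cannot be told apart from antisense RNA of the plus-strand transcript.

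Of the 37 genes, the 13 protein genes and both rRNAs were above the filter on low values in every depot, and all 15 were tested. The 22 tRNA genes, 59 to 75 bases long, were at 0 in every library of isWAT, sWAT, BAT and eWAT and are not among the 29330 genes of the ieWAT table. The tables that list all genes hold 790 genes of 75 bases or fewer, 768 of them outside the mitochondrial genome, and 0 of the 790 were above 0 in any library. The tRNA values therefore say nothing about tRNA abundance in the tissue.

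Read totals, recovered from the tables as whole reads, were 14951333 to 21246286 in BAT, 13490948 to 21241811 in sWAT, 37700750 to 48812592 in isWAT and 29857189 to 43624353 in ieWAT libraries, and the eWAT depth is unknown. Values are read counts scaled to a library total of 1000000 (CPM) in these 4 depots and FPKM, which also divides by gene length, in eWAT. Fgf13 itself was below every control library in each knockout library of ieWAT (39.7 to 51.4 against 22.6 to 33.4 CPM), isWAT (52.99 to 69.2 against 31.3 to 35.3), sWAT (106 to 113 against 43.01 to 83.99) and BAT (3.01 to 17.6 against 0.246 to 1.87). In eWAT the groups overlapped, 12.9 to 27.6 against 17.6 to 27.02 FPKM, so its second group is called the libraries labelled knockout. Brown adipocyte markers, Ucp1 among them, summed to 7556 to 10330.1 CPM in BAT and to at most 92.9 CPM in a library of ieWAT, isWAT or sWAT. Skeletal muscle transcripts stood high in 2 sWAT knockout libraries and in 3 BAT libraries, and this is given beside the results for those depots.

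The share of each library taken by mitochondrial transcripts was several times higher in brown fat than in the white depots. In BAT it was 31.6, 35.8 and 27.7% in the control libraries and 34.9 and 33.4% in the knockout libraries. In isWAT it was 2.83, 3.04 and 3.36% in the control libraries and 4.19 and 3.29% in the knockout libraries, and in ieWAT 3.47, 2.11 and 2.48% in the control libraries and 2.84, 3.33 and 2.72% in the knockout libraries. The knockout libraries of these 3 depots overlapped the control libraries. In sWAT the share was 5.63, 5.48 and 5.56% in the control libraries and 5.77, 8.02 and 8.15% in the knockout libraries, so all 3 knockout libraries lay above all controls. In eWAT, where it is a share of summed FPKM, it was 5.59, 5.98 and 5.55% in the control libraries and 7.09, 11.4 and 7.59% in the libraries labelled knockout, again with every library labelled knockout above the controls.

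As means with SD, control against knockout (n = 3 and 3, or 3 and 2 in isWAT and BAT), the ieWAT shares were 2.69 ± 0.702% against 2.96 ± 0.327%, a ratio of 1.10, and the isWAT shares 3.08 ± 0.271% against 3.74 ± 0.639%, a ratio of 1.21. They were 5.56 ± 0.0726% against 7.31 ± 1.34% in sWAT, 31.7 ± 4.04% against 34.1 ± 1.04% in BAT and 5.70 ± 0.240% against 8.71 ± 2.38% in eWAT, with ratios of 1.32, 1.08 and 1.53. With the nuclear copies added, the separation in sWAT was lost: 6.49, 5.96 and 6.24% in the control libraries and 6.22, 8.81 and 8.92% in the knockout libraries. That in eWAT remained, at 6.16, 6.58 and 5.97% in the control libraries and 7.64, 12.1 and 8.27% in the libraries labelled knockout. Single libraries moved these ratios. Without the second control library the ieWAT change in mean share went from 10.2% to -0.511%, and without the first to 28.9%. Without the first isWAT knockout library it went from 21.5% to 6.80%. In BAT it went from 7.56% to 1.20% without the third control library, and in eWAT from 52.6% to 28.7% without the second library labelled knockout. No p-value is given for a sum over these genes, since they were chosen with results of these data known. In bulk tissue, a larger share from more mitochondria-rich cells and one from more mitochondrial RNA per cell cannot be told apart.

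**Figure D2:**
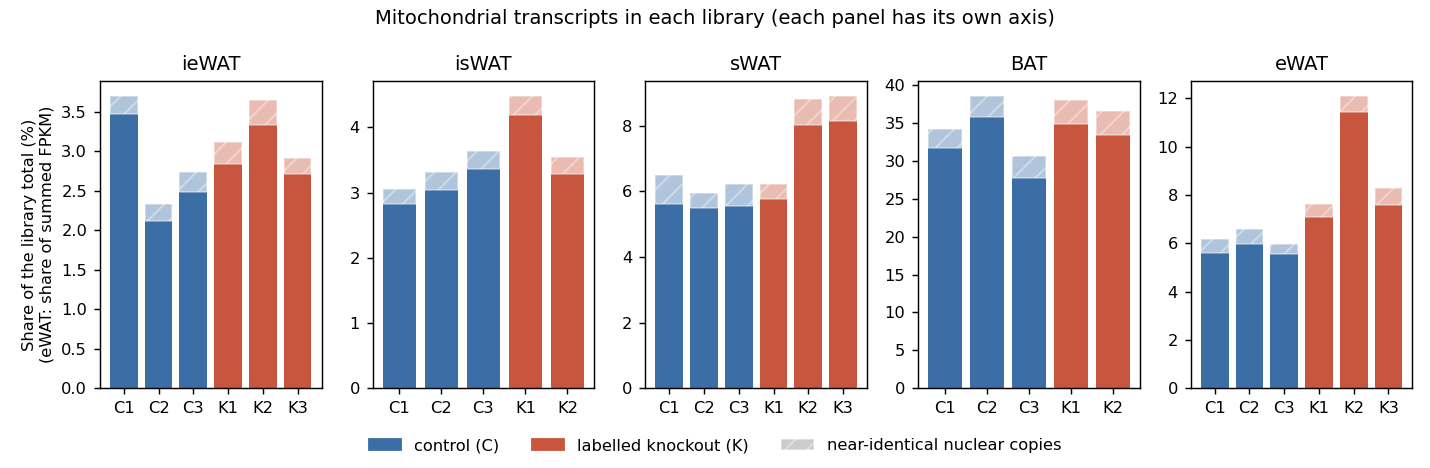
Mitochondrial transcripts as a percent of each library (of summed FPKM in eWAT), one bar per library, with the nuclear copies stacked on top. Control and knockout libraries are coloured apart, and each of the 5 depots has its own axis. Brown fat lies between 27.7 and 38.6%, white fat between 2.11 and 12.1%. The groups separate without the copies in sWAT and with or without them in eWAT.

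The order of the genes by level was much the same everywhere. Compared per kilobase of transcript with copies added, the cytochrome oxidase subunit mt-Co1 was highest in the controls of every depot. It stood at 59743 ± 6387 CPM per kb in BAT, 11467 ± 626 in sWAT, 7631 ± 707 in isWAT and 6717 ± 1589 in ieWAT (SD, n = 3), and at 6904 ± 208 FPKM in eWAT. The level of mt-Co2, another core subunit of that enzyme, was 98.3, 74.6, 62.7, 65.5 and 86.5% of mt-Co1 in BAT, sWAT, isWAT, ieWAT and eWAT. At the other end was mt-Nd6, a complex I subunit, with 0.307, 0.0702, 0.119, 0.0933 and 0.196% of mt-Co1 in the same order. As deposited, mt-Co1 was also highest in the 4 white sets, but in BAT it came after mt-Co3 (55812 ± 5476 CPM per kb), mt-Atp6 (53310.4 ± 6919.6) and mt-Co2 (50684 ± 8326), at 48380.5 ± 5863. Both rRNAs lay at 2.32 to 4.04% of mt-Co1, and whether libraries were made from polyadenylated RNA is not given in the sources used here.

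Among the 14 pairs of neighbours in this order, the control ranges were apart in 6 pairs in BAT, 7 in sWAT, 8 in isWAT, 4 in ieWAT and 8 in eWAT, and the other neighbours did not differ beyond their spread. As a description over the 15 genes, Spearman's rho between depots was 0.829 to 0.989. Its lowest values were those with eWAT, whose unit differs. The gene that moved most in rank was mt-Atp8, a small ATP synthase subunit, and most of this movement lay in eWAT. In BAT, sWAT, isWAT, ieWAT and eWAT its level per kb was 31.3, 34.2, 10.2, 11.6 and 68.4% of mt-Co1, which put it in place 9, 8, 11, 10 and 3 of 15. The depots were normalised separately, so these places were compared without a test.

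**Figure D3:**
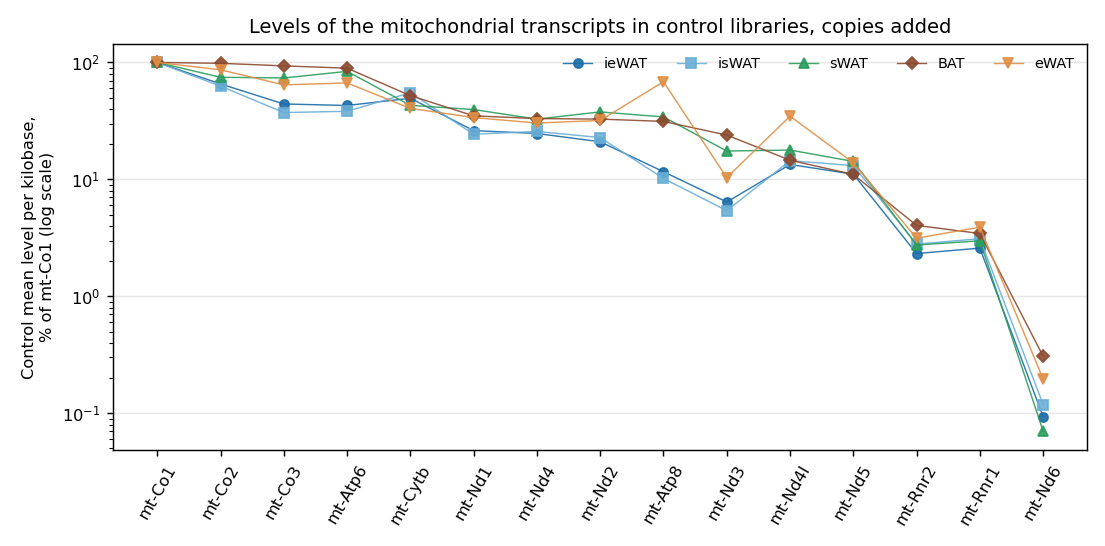
Mean control levels of the 13 protein genes and 2 rRNAs per kilobase of transcript with nuclear copies added, for the 5 depots. Each is a percent of mt-Co1 in the same depot (log axis), and no spread is drawn. The mt-Co1 level is highest and the mt-Nd6 level lowest in every depot.

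In the inducible knockout of epididymal fat (ieWAT), the values of control and knockout libraries overlapped for all 15 genes, while 3.43% of all genes tested had every knockout library above every control. The larger rRNA, mt-Rnr2, was at 262, 232 and 246 CPM in control and 221, 316 and 214 CPM in knockout libraries, and the smaller, mt-Rnr1, at 171, 159 and 168 CPM in control and 165, 199 and 146 CPM in knockout libraries. In both, the second knockout library was highest and the third lowest, with all controls in between. For mt-Co1 the values were 11893, 6873 and 8014 CPM in control and 9128, 11060.4 and 9532 CPM in knockout libraries. For mt-Co2 they were 3344, 2474 and 2711 CPM in control and 3273, 3517 and 2715 CPM in knockout libraries. Both subunits were lowest in the second control library, and for mt-Co1 the first control library exceeded every knockout library.

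Cytochrome b, encoded by mt-Cytb and the only mitochondrial-encoded subunit of complex III, was at 4385, 3125 and 3877 CPM in control and 4478, 5530.1 and 3375 CPM in knockout libraries. The ATP synthase subunit mt-Atp8 was at 231, 122 and 125 CPM in control and 160.4, 183 and 162 CPM in knockout libraries. Among complex I subunits, mt-Nd4l was at 404, 164 and 234 CPM in control and 231, 292 and 296 CPM in knockout libraries, with the first control library standing highest. The minus-strand gene mt-Nd6 was at 3.04, 2.95 and 3.77 CPM in control and 2.32, 6.83 and 3.62 CPM in knockout libraries and was lowest and highest in knockout libraries. Fitted changes on the scale of log2(value + 1), knockout minus control, ran from 0.002 to 0.43 with a median of 0.16, beside 0.018 for all 14749 genes tested. By limma 0 of 15 passed the threshold of adjusted p under 0.05, beside 0.0% of all genes. At an unadjusted p under 0.05 the count was 0, beside 2.62% of all genes (2.0% with a higher value). On the recovered reads edgeR and DESeq2 also called 0, beside 0.0 and 0.185% of all genes. The median rested on the second control library, without which it was -0.016. Lymphocyte markers differed in level in this depot, with 0 of them called by limma or edgeR. DESeq2 called 1 of 6 B cell markers higher, beside 0.185% of all genes called in either direction. Of 8 T and NK cell markers 5 were above every control in all knockout libraries, beside 3.43% of all genes, and their sum was 21.4 to 54.03 CPM in control and 52.8 to 71.02 CPM in knockout libraries. Of 6 B cell markers 1 was, and their sum was 1173 to 2155 CPM in control and 3172 to 5268 CPM in knockout libraries. The part of these cells in the mitochondrial values was not tested.

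In the inducible knockout of subcutaneous fat (isWAT), mt-Atp8, mt-Co3 and mt-Atp6 were above every control in both knockout libraries, and the remaining 12 genes overlapped. These 3 of 15 stand beside 12.2% of all genes tested. The clearest was mt-Atp8, at 140.1, 155 and 181 CPM in control and 342 and 230.3 CPM in knockout libraries, a change of 0.83 (SE 0.18, limma adjusted p = 0.270). The first knockout library was the higher of the pair. For mt-Co3, the remaining core subunit of cytochrome oxidase, values were 1622, 1734 and 1995 CPM in control and 3121 and 2171 CPM in knockout libraries, a change of 0.55 (SE 0.17, limma adjusted p = 0.314). With the copy added they were 1953, 2147 and 2588 CPM in control and 3192 and 2647 CPM in knockout libraries, the copy alone being at 332, 413 and 593 CPM in control and 70.95 and 477 CPM in knockout libraries. The mt-Atp6 gene, for a membrane subunit of ATP synthase, had a fitted change of 0.37 (SE 0.16, limma adjusted p = 0.397), and its groups overlapped once the copy was added.

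DESeq2 on the recovered reads called 2 of the 15 higher in isWAT, with 0.799% of all genes called higher. They were mt-Atp8 (0.88, DESeq2 adjusted p = 0.000352) and mt-Co3 (0.60, DESeq2 adjusted p = 0.0200). With copies added the mt-Co3 call was lost (adjusted p = 0.0902) and mt-Nd3, a complex I subunit, was called in its place (0.68, adjusted p = 0.00407), with 0.791% of all genes called higher. With the copy, mt-Nd3 was at 121, 148 and 161 CPM in control and 257 and 192 CPM in knockout libraries, above all controls in both knockout libraries. Without it the groups overlapped, at 31.9, 53.4 and 41.2 CPM in control and 65.4 and 42.7 CPM in knockout libraries. By limma 0 of 15 passed, beside 0.00701% of all genes, and edgeR called 0, beside 0.0%. An unadjusted limma p under 0.05 was found for 2, beside 3.98% of all genes with a higher value.

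The rRNAs overlapped, mt-Rnr1 at 216, 243 and 222 CPM in control and 285 and 199.5 CPM in knockout libraries and mt-Rnr2 at 308, 369 and 335 CPM in control and 433 and 306 CPM in knockout libraries. In each, the first knockout library was highest of all 5 and the second was lowest. The same library was highest for mt-Co1, 9123, 9487 and 11215 CPM in control and 13045 and 10750.1 CPM in knockout libraries. It was highest for mt-Co2 as well, 2891, 3314 and 3143 CPM in control and 4302 and 3143 CPM in knockout libraries, and for mt-Cytb, 4419, 4834 and 5184 CPM in control and 6049 and 5001 CPM in knockout libraries. The second knockout library lay within the control range for these 3 genes. Values of mt-Nd4l, 305, 281 and 397 CPM in control and 376 and 338 CPM in knockout libraries, and mt-Nd6, 3.14, 3.75 and 7.21 CPM in control and 4.56 and 2.86 CPM in knockout libraries, were highest in the third control library. Over the 15 genes the median change was 0.25, against -0.028 for all genes. Without the first knockout library the median was 0.063 and the rRNA changes were negative, -0.18 for mt-Rnr1 and -0.14 for mt-Rnr2. Cell type markers differed in level as well, with 0 called by limma or edgeR. DESeq2 called 2 of 9 adipocyte and 1 of 8 macrophage markers higher, beside 0.799% of all genes called higher. It called 2 of 6 endothelial markers lower, beside 156 of 11890 genes. Endothelial markers summed to 2071 to 2288 CPM in control and 1796 to 1909.9 CPM in knockout libraries, and 4 of 6 were below every control in both knockout libraries, as were 4 of 8 T and NK cell markers, beside 19.4% of all genes. Lipid-associated macrophage markers summed to 542 to 877 CPM in control and 922 to 932 CPM in knockout libraries, with 3 of 5 above every control, beside 12.2% of all genes. Adipocyte markers summed to 27264 to 28729 CPM in control and 30294 to 30335 CPM in knockout libraries. Of these 9 markers 3 were above every control and 2 below, beside 12.2 and 19.4% of all genes. The part of these cells in the mitochondrial values was not tested.

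In the constitutive knockout of subcutaneous fat (sWAT), both rRNAs and mt-Nd6 were higher in all 3 knockout libraries than in any control, and protein genes on the plus strand were less uniform. For mt-Rnr2 the values were 443, 513 and 538 CPM in control and 723, 697 and 679.8 CPM in knockout libraries, a change of 0.49 (SE 0.10, limma adjusted p = 0.447). For mt-Rnr1 they were 294, 336 and 349 CPM in control and 439, 475 and 414 CPM in knockout libraries, a change of 0.44 (SE 0.095, limma adjusted p = 0.447). The 3 knockout libraries lay close together and clear of the controls in both. For mt-Nd6 they were 3.91, 3.85 and 4.77 CPM in control and 6.38, 8.72 and 7.61 CPM in knockout libraries, a change of 0.72 (SE 0.15, limma adjusted p = 0.447), at the low end of measured levels. As a share of the library the rRNAs stood at 0.0737, 0.0850 and 0.0887% in the control libraries and 0.116, 0.117 and 0.109% in the knockout libraries.

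Among ATP synthase and cytochrome oxidase genes, the separation depended in part on the split with their copies. The mt-Atp8 values, 842, 799 and 759 CPM in control and 911, 1276 and 1216 CPM in knockout libraries, did not overlap (change 0.49, SE 0.14). No copy of this gene is listed, but its last 43 bases, shared with mt-Atp6, also lie in Gm10925. As deposited, mt-Co2 was at 3676, 4611 and 3715 CPM in control and 5661, 5818 and 7257 CPM in knockout libraries and also apart (change 0.64, SE 0.15). With Gm28661 added it was at 6338, 5487 and 5739 CPM in control and 6418, 7983 and 8688 CPM in knockout libraries, where the first knockout library stood just above the highest control and the change was 0.39 (SE 0.14). As deposited, mt-Atp6 was at 4655, 5611 and 4882 CPM in control and 6391, 8412 and 8007 CPM in knockout libraries. With Gm10925 added it was at 6902, 6289 and 6455 CPM in control and 6793, 9405 and 9584 CPM in knockout libraries, which overlapped. By contrast mt-Co1 overlapped as deposited, 15739, 14211 and 15036 CPM in control and 14317, 20846 and 21143 CPM in knockout libraries, and so did mt-Cytb, 6151, 5223 and 5536 CPM in control and 5919.8, 8215 and 8664 CPM in knockout libraries, and mt-Nd4l, 600.4, 576 and 644 CPM in control and 548, 851 and 941 CPM in knockout libraries. The complex I subunits mt-Nd3 and mt-Nd5 were apart as deposited, and mt-Nd5, which has no listed copy, stood at 3087, 2747 and 3099.6 CPM in control and 3271, 4095 and 4360.2 CPM in knockout libraries. In mt-Co1, mt-Cytb and mt-Nd4l the second and the third knockout library were above the controls and the first was within their range or below it.

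Groups did not overlap for 8 of the 15 genes as deposited and 6 with copies added, all higher in the knockout, beside 3.8% of all genes tested. The median change of the 15 was 0.41 (0.38 with copies) and that of all genes -0.048. By limma 0 of 15 passed, beside 0.0217% of all genes, and 10 had an unadjusted p under 0.05, beside 1.93% of all genes that did so with a higher value. EdgeR called 0, beside 0.00682% of all genes. DESeq2 called 5 higher, with 0.391% of all genes called higher: mt-Rnr2 (0.54, adjusted p = 1.09e-05), mt-Rnr1 (0.49, adjusted p = 0.000685), mt-Co2 (0.69, adjusted p = 0.000630), mt-Atp6 (0.64, adjusted p = 0.00113) and mt-Atp8 (0.55, adjusted p = 0.0246). With copies added it called 3, both rRNAs and mt-Atp8, and the calls of mt-Co2 (adjusted p = 0.103) and mt-Atp6 (adjusted p = 0.168) were lost. Without the first knockout library, limma called mt-Atp8 (0.64, adjusted p = 0.0217), with 0.782% of all genes called higher. With copies added it then also called mt-Nd3 (0.57, adjusted p = 0.0295).

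Skeletal muscle, itself rich in mitochondria, differed between these libraries. The summed level of 15 muscle markers was 66.3, 66.6 and 55.7 CPM in control and 59.6, 2788 and 3674 CPM in knockout libraries, so the second and the third knockout library stood far above the rest and the first was at control level. Of these markers 12, 13 and 13 were above 0 in the control libraries and 11, 15 and 15 in the knockout libraries. DESeq2 called 8 of the 15 higher, beside 0.391% of all genes called higher, and limma and edgeR called 0. Ckm, the muscle creatine kinase, was at 0 in the first knockout library and at 341 and 408 CPM in the other two. The first knockout library, without this signal, was above all controls for mt-Rnr1, mt-Rnr2, mt-Nd6, mt-Atp8, mt-Atp6, mt-Co2, mt-Nd3 and mt-Nd5 as deposited. With copies added the groups overlapped for mt-Atp6 and mt-Nd3. For the summed share, leaving out the other two lowered the change from 31.6% to 3.72%. Endothelial markers summed to 1334 to 1345 CPM in control and 984 to 1262 CPM in knockout libraries, with 4 of 6 below every control in all knockout libraries, beside 12.3% of all genes, and lipid-associated macrophage markers to 890.4 to 982 CPM in control and 313 to 791 CPM in knockout libraries. DESeq2 called 2 of 6 endothelial markers lower, beside 18 of 17137 genes. The part of muscle and of these cells in the remaining differences was not tested.

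In brown fat (BAT), where these genes took 27.7 to 35.8% of all reads, most overlapped between the groups. Both rRNAs had the largest fitted changes, mt-Rnr1 with 0.46 (SE 0.22, limma adjusted p = 0.291) and mt-Rnr2 with 0.41 (SE 0.23, limma adjusted p = 0.335). For mt-Rnr1 the values were 2095, 2342 and 1461 CPM in control and 2433 and 2903 CPM in knockout libraries, so both knockout libraries lay above all controls, the closest pair being 2342 and 2433. For mt-Rnr2 they were 3955, 4715 and 2780.4 CPM in control and 5112 and 4819.8 CPM in knockout libraries, again without overlap. The third control library was lowest for both. As a share of the library the rRNAs were 0.605, 0.706 and 0.424% in the control libraries and 0.754 and 0.772% in the knockout libraries.

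Of the protein genes as deposited, only mt-Atp6 had groups apart, at 37041, 40605 and 31267 CPM in control and 43177 and 42124 CPM in knockout libraries, with a change of 0.24 (SE 0.16). For mt-Co1, at 70598, 85137 and 68508 CPM in control and 83404 and 74774 CPM in knockout libraries, both knockout libraries lay between the controls. The mt-Co2 values were 36227, 39422 and 28356 CPM in control and 33808 and 39242 CPM in knockout libraries as deposited, which overlapped, and 41202, 43815 and 35481 CPM in control and 45017 and 45761 CPM in knockout libraries with the copy added, which did not. In mt-Cytb, 36583, 39175 and 30923 CPM in control and 41952 and 37852 CPM in knockout libraries, and mt-Atp8, 3514, 4704 and 3229 CPM in control and 4891 and 4313 CPM in knockout libraries, one knockout library exceeded the controls and the other did not. Of the complex I subunits, mt-Nd4l was at 2733, 2958 and 2070.2 CPM in control and 3152 and 2229 CPM in knockout libraries and mt-Nd6 at 71.9, 98.7 and 115 CPM in control and 111 and 114 CPM in knockout libraries. The mt-Nd5 gene, for the largest complex I subunit of this genome, had the one negative change, -0.21 (SE 0.17), at 11660.3, 13852 and 10496 CPM in control and 11119 and 9560.0 CPM in knockout libraries.

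Groups were apart for 3 of 15 genes as deposited and 4 with copies added, beside 6.37% of all genes. By limma 0 of 15 passed, beside 0.00755% of all genes, 0 had an unadjusted p under 0.05, beside 19.2% of all genes (2.32% with a higher value), and edgeR and DESeq2 called 0, beside 0.0 and 5.08% of all genes. The median change was 0.13 while that of all genes was -0.18, and 38.1% of all genes tested were below every control in both knockout libraries. TMM scaling moved the median of all genes to 0.0031 and that of the 15 to 0.33, with mt-Nd5 then at -0.0037. Without the third control library the median of the 15 was 0.027. Muscle markers summed to 605, 1712 and 49.1 CPM in control and 44.9 and 8128 CPM in knockout libraries. The second knockout library was highest by muscle markers. The second control library, next by muscle markers, was highest by mitochondrial share. Orders over so few libraries cannot decide the part of muscle in the mitochondrial values. Macrophage markers summed to 319 to 1335 CPM in control and 137 to 138 CPM in knockout libraries. Of these markers 8 of 8 were below every control in both knockout libraries, as were 5 of 5 lipid-associated macrophage and 4 of 6 endothelial markers, beside the 38.1% of all genes. DESeq2 called 8 of 8 macrophage, 5 of 5 lipid-associated macrophage and 1 of 6 fibroblast and progenitor markers lower, beside 457 of 13606 genes. It called 1 of 9 adipocyte markers higher, beside 1.72% of all genes, and limma and edgeR called 0 markers. The part of these cell types in the mitochondrial values was not tested.

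**Figure D4:**
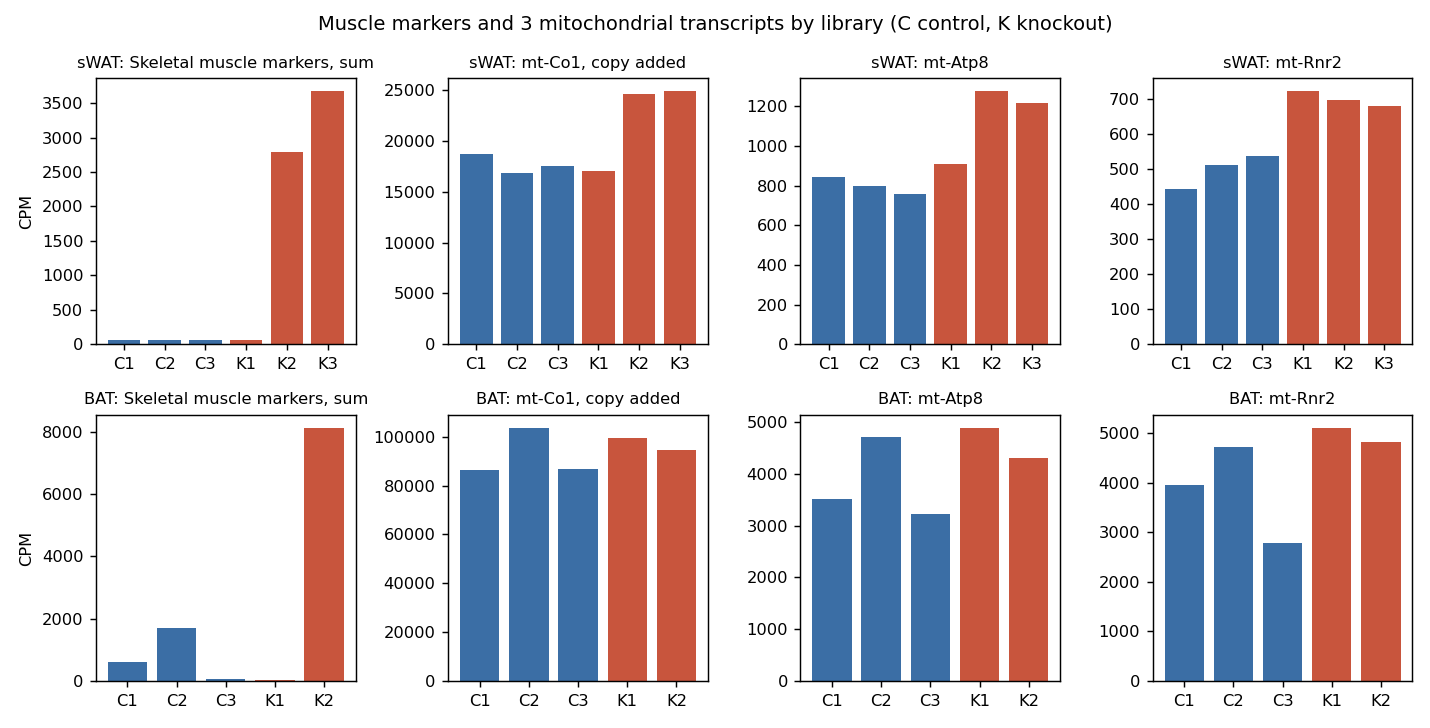
Summed skeletal muscle markers and the levels of mt-Co1 with its copy, mt-Atp8 and mt-Rnr2 (CPM), drawn as bars for each control and knockout library of sWAT and BAT. In sWAT the muscle sum of the first knockout library sits at the control level, and those of the second and the third stand far above it. In BAT the second knockout library has the highest muscle sum. It is not the highest for the mitochondrial genes drawn, and it is the highest for mt-Rnr1 and for mt-Co2 with its copy, which are not drawn.

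In the second epididymal set (eWAT), 12 of 15 mitochondrial genes were higher in every library labelled knockout than in any control. In this depot 21.6% of all genes tested had such groups. One gene passed the threshold, mt-Nd4, a membrane subunit of complex I, at 2043, 2251 and 1982 FPKM in control and 2793, 4058 and 3195 FPKM in libraries labelled knockout, a change of 0.66 (SE 0.16, limma adjusted p = 0.0402). By the same test 10.2% of all genes were called higher and 14.9% were called in either direction. The call of mt-Nd4 was lost without any of the 3 control libraries or without the second or the third library labelled knockout, where adjusted p ran from 0.0761 to 0.131. Without the third control library mt-Nd3 passed in its place (adjusted p = 0.0403), beside 6.08% of all genes called higher. Without the first library labelled knockout, 3 genes passed, mt-Nd4, mt-Nd2 and mt-Cytb, beside 5.8% (5.81% with copies added). With values scaled to the nuclear genes mt-Nd4 and mt-Nd3 passed, beside 7.96%, and both also passed among genes with a mean of at least 5, beside 12.7%. With copies added mt-Nd3, whose copy held 77.4 to 84.8% of the pair in eWAT, passed in 0 of the 8 fits run, with adjusted p from 0.0553 to 0.165. The mt-Nd4 call was also lost with no filter on low values (adjusted p = 0.0946). With limma's variance trend and robust option both off, mt-Nd4 still passed, beside 9.35% of all genes.

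The second library labelled knockout was highest for each of the 15 genes. For mt-Co1 the values were 5672, 6176 and 5935 FPKM in control and 6838, 10547 and 7987 FPKM in libraries labelled knockout. For mt-Co2 they were 5206, 5458 and 5678 FPKM in control and 6667, 9126 and 7395 FPKM in libraries labelled knockout, a change of 0.49 (SE 0.15, limma adjusted p = 0.0706). For mt-Cytb they were 2791, 2845 and 2743 FPKM in control and 3456, 5559 and 4329 FPKM in libraries labelled knockout, a change of 0.64 (SE 0.18, limma adjusted p = 0.0589). All libraries labelled knockout exceeded the controls in these 3 genes, and the first was the closest to them. The mt-Atp8 values of 4493, 4416 and 5263 FPKM in control and 5972, 14132 and 5809 FPKM in libraries labelled knockout were apart too, with the second library far above the others (change 0.74, SE 0.35). For mt-Nd4l they were 2115, 2626 and 2444 FPKM in control and 3115, 5593 and 3377 FPKM in libraries labelled knockout (change 0.70, SE 0.24).

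The rRNAs and mt-Nd6 overlapped. For mt-Rnr1 the values were 226, 258 and 324 FPKM in control and 255, 411 and 316 FPKM in libraries labelled knockout (change 0.27, SE 0.21), and for mt-Rnr2 188, 211 and 253 FPKM in control and 221, 348 and 268 FPKM in libraries labelled knockout (change 0.35, SE 0.19). For mt-Nd6 they were 7.92, 17.5 and 15.2 FPKM in control and 10.4, 45.8 and 10.6 FPKM in libraries labelled knockout (change 0.40, SE 0.66), and without the second library labelled knockout the change was -0.27. In unadjusted terms 11 of 15 had a limma p under 0.05, beside 18.9% of all genes with a higher value. The median change was 0.64 as deposited and 0.55 with copies added, against -0.025 for all genes. Without the second library labelled knockout it was 0.37. In the other deposited table of the same 6 libraries, in TPM, the mt-Nd4 change was 2.42 with a limma adjusted p of 0.917, and mt-Atp8, mt-Co3 and mt-Nd6 had negative changes. The median there was 2.07. The FPKM and TPM values thus disagree in size and, for these genes, in direction, and which of them is sounder was not tested.

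Cell type markers also separated the eWAT groups. Adipocyte markers were called higher in 9 of 9 (median 1.28), beside 10.2% of all genes, and their summed level was 7509 to 9709 FPKM in control libraries and 17911 to 22584 FPKM in libraries labelled knockout. Endothelial markers were called higher in 4 of 6 (median 0.63), at 162 to 199 and 238 to 312 FPKM. Of 15 skeletal muscle markers 5 were tested and 2 called higher, with sums of 26.2 to 33.6 and 48.02 to 54.1 FPKM. Macrophage markers were called lower in 5 of 8 (median -0.65), beside 4.7% of all genes, at 7045 to 10599 and 4431 to 5178 FPKM. Their part in the mitochondrial difference was not tested.

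**Figure D5:**
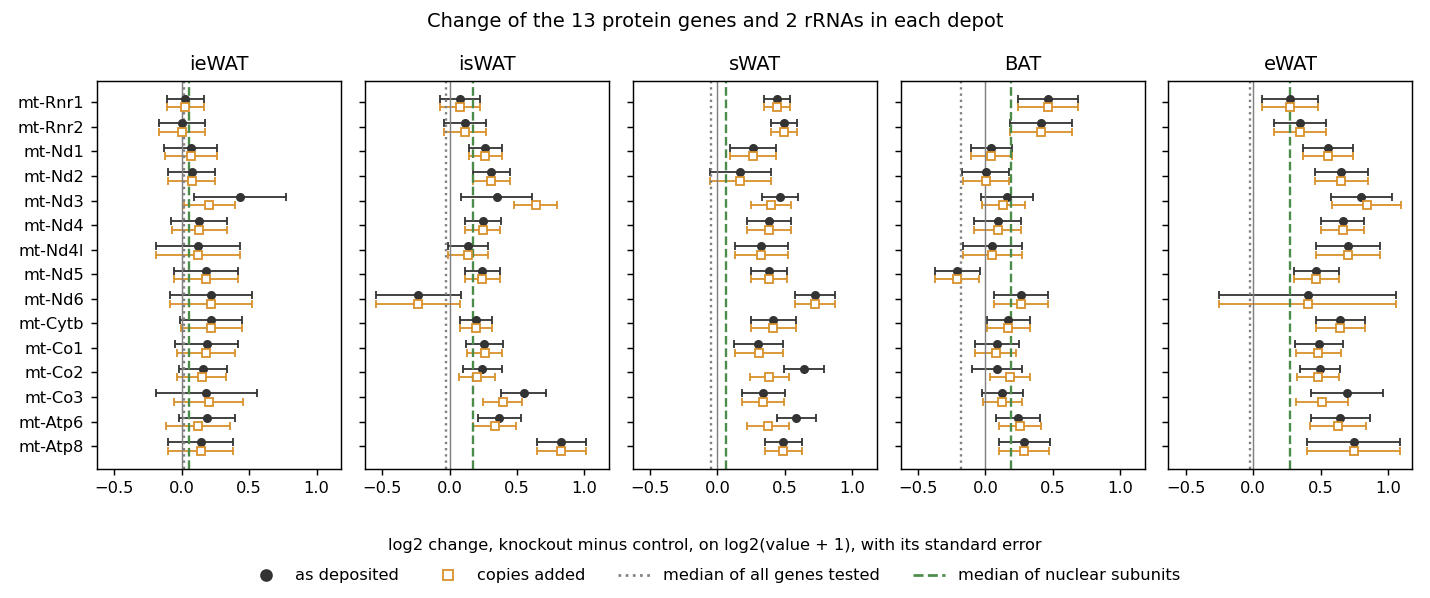
Fitted changes on the scale of log2(value + 1), knockout minus control, of the 13 protein genes and 2 rRNAs with their standard errors, as deposited and with copies added, for the 5 depots. The eWAT changes lie highest with a median of 0.64, the sWAT median is 0.41, and the ieWAT, isWAT and BAT medians are 0.16, 0.25 and 0.13.

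The make-up of the mitochondrial transcripts was followed by 6 ratios per depot with copies added, the parts of rRNAs, complexes I, III, IV and V, and mt-Nd6. Of these 30 ratios, 4 had all knockout libraries above the controls and 5 had them all below. The complex parts share 1 total and mt-Nd6 is within complex I, so the ratios are not separate observations. Beside them, 3.43, 12.2, 3.8, 6.37 and 21.6% of all genes were above every control in ieWAT, isWAT, sWAT, BAT and eWAT. Below every control were 19.4, 12.3 and 38.1% in isWAT, sWAT and BAT. In ieWAT 248 of 14749 genes were, and in eWAT 2691 of 13736. Complex V in sWAT, as a part of all protein-gene values, was at 12.1, 12.1 and 11.7% in the control libraries and 12.6, 12.3 and 12.3% in the knockout libraries, with knockouts above controls. In BAT it was at 12.1, 11.96 and 11.4% in the control libraries and 13.02 and 13.1% in the knockout libraries, again apart. Complex IV in eWAT was at 43.1, 42.9 and 43.4% in the control libraries and 41.6, 37.04 and 41.8% in the libraries labelled knockout, all below the controls. Complex I in ieWAT was at 24.8, 24.3 and 25.8% in the control libraries and 24.2, 24.04 and 24.2% in the knockout libraries, with all knockouts below the controls. The rRNA part of all mitochondrial and copy values was 1.77, 1.83 and 1.383% in the control libraries and 1.98 and 2.11% in the knockout libraries in BAT, with knockouts above. In eWAT it was 1.07, 1.13 and 1.39% in the control libraries and 0.961, 0.919 and 1.04% in the libraries labelled knockout, all below the controls. The others apart were mt-Nd6 in sWAT, above the controls, and complex III and mt-Nd6 in isWAT, below them.

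Most respiratory subunits are made from nuclear genes, and 79 entries of these for complexes I to V were read in the same fits. By limma and by edgeR 0 passed in ieWAT, isWAT, sWAT and BAT, and 0, 11, 0 and 8 of them had an unadjusted limma p under 0.05 with a higher value, beside 2.0, 3.98, 1.93 and 2.32% of all genes. DESeq2 called 0 in ieWAT and sWAT, 2 higher in isWAT and 17 higher in BAT, where it called 0.799% and 1.72% of all genes higher. Those in isWAT were Atp5l (0.39, adjusted p = 0.0221) and Atp5f1 (0.28, adjusted p = 0.0283). The 4 with the smallest p in BAT were Uqcr10 (0.56, adjusted p = 0.00664), Ndufb9 (0.49, adjusted p = 0.0102), Cox6b1 (0.51, adjusted p = 0.0184) and Uqcrh (0.45, adjusted p = 0.0201). Their changes were positive in 72 of 79 tested in ieWAT (median 0.055), 78 of 79 in isWAT (0.17), 64 of 78 in sWAT (0.063) and 75 of 78 in BAT (0.19). Of all genes tested, 55.8, 43.9, 37.2 and 23.6% had a positive change there. In eWAT 16 of 79 were called higher and 0 lower, with a median of 0.27, beside 10.2% of all genes called higher. There 77 were positive, beside 46.4% of all genes. The complex I subunits Ndufb3 (change 0.86, SE 0.13, limma adjusted p = 0.0128), Ndufv3 (0.52, SE 0.084), Ndufab1 (0.67, SE 0.12) and Ndufs4 (0.51, SE 0.10) had the smallest p of the 10 called in that complex. Complex III had 3, Uqcr11 (0.49, SE 0.11), Cyc1 (0.48, SE 0.11) and Uqcrq (0.41, SE 0.10). Complex IV had Cox8a (0.46, SE 0.088), complex V had Atp5g3 (0.52, SE 0.12) and Atp5b (0.46, SE 0.10), and complex II, which has no mitochondrial-encoded subunit, had 0 of 4.

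Machinery that makes and uses mitochondrial RNA was read the same way. Genes for transcription and replication of mitochondrial DNA had 0 called by limma in every depot and 0 by edgeR or DESeq2 where reads were at hand, with medians of 0.046, 0.047, -0.024, -0.13 and 0.086 in ieWAT, isWAT, sWAT, BAT and eWAT. RNA processing genes had 4 of 36 called higher in eWAT, a share close to the 10.2% of all genes: Rpusd3 (0.56, SE 0.085), Hsd17b10 (0.33, SE 0.085), Ptcd3 (0.32, SE 0.080) and the mitochondrial poly(A) polymerase Mtpap (0.39, SE 0.082). In the other depots 0 were called by any of the 3 tools, and the list's medians were 0.0066, -0.020, -0.012, -0.014 and, in eWAT, 0.13. Mitoribosomal protein genes had 18 of 79 called higher in eWAT (median 0.22), beside 10.2% of all genes, among them Mrps6 (0.92, SE 0.11), Mrps18b (0.48, SE 0.093), Mrpl32 (0.45, SE 0.071) and Mrpl50 (0.41, SE 0.075). By limma and edgeR 0 were called in the other depots, where medians were 0.041, 0.12, 0.015, 0.0045 in the same order. DESeq2 called 2 higher in isWAT, Mrps33 and Mrps14, beside 0.799% of all genes called higher. It called 1 higher in BAT, Mrpl50, beside 1.72% of all genes. Regulators of mitochondrial biogenesis had 0 called in every depot by any tool, with medians of -0.047, -0.12, -0.074, 0.082 and -0.014. The numbers with an unadjusted limma p under 0.05 were 0 in ieWAT for each list and, in isWAT, sWAT and BAT, at most 3 for the 3 lists other than mitoribosomal proteins, which had 11, 1 and 1 with a higher value. Of all genes 13.1, 9.66 and 19.2% did so in either direction and 3.98, 1.93 and 2.32% with a higher value.

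Tfam, which packages mitochondrial DNA and starts its transcription, averaged 29.8 ± 3.80 against 29.8 ± 1.62 CPM in BAT, 23.8 ± 0.800 against 21.9 ± 2.50 CPM in sWAT, 18.3 ± 1.21 against 18.9 ± 1.16 CPM in isWAT, 19.2 ± 3.63 against 19.7 ± 0.375 CPM in ieWAT and 14.3 ± 3.77 against 14.1 ± 0.921 FPKM in eWAT (control against knockout, SD, n = 3, or 2 in isWAT and BAT knockouts). The groups overlapped in every depot. The mitochondrial RNA polymerase Polrmt overlapped except in isWAT, where both knockout libraries were below the controls, 39.4 ± 1.20 against 33.5 ± 1.53 CPM, as were 19.4% of all genes there. Lrpprc, which stabilises mitochondrial mRNAs, averaged 125 ± 15.5 against 131 ± 12.7 CPM in BAT and 12.1 ± 0.898 against 11.9 ± 0.806 FPKM in eWAT, and overlapped in all depots. Ppargc1a, a coactivator of mitochondrial genes, averaged 29.2 ± 4.86 against 31.2 ± 3.24 CPM in BAT, was under the filter in eWAT and overlapped except in isWAT, where both knockout libraries were again below the controls, 3.55 ± 0.164 against 3.18 ± 0.330 CPM. Of nuclear respiratory subunits, Cox4i1 overlapped in every depot, at 1285 ± 72.02 against 1432 ± 129 CPM in BAT, and Sdha and Atp5b were apart, higher in knockouts, in BAT and eWAT, beside 6.37 and 21.6% of all genes. Sdha was at 1818 ± 207 against 2154 ± 55.05 CPM and 103 ± 7.65 against 126 ± 11.1 FPKM. Atp5b was at 6114 ± 467 against 6845 ± 101 CPM and 537 ± 21.4 against 739 ± 61.9 FPKM.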

How the data were processed

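RNA was extracted with a Qiagen RNeasy kit and sequenced on an Illumina HiSeq2000, per the labels' protocols. Salmon, DESeq2 1.38.3, MultiQC and FastQC are named in the submitters' processing notes, without roles, and neither genome build nor annotation is given in the sources used here. The deposited ieWAT, isWAT, sWAT and BAT tables hold CPM, although they are named as FPKM: 100% of values were whole multiples of 1 read within 0.01 reads, and 3 reads, below which a value is not told from 0, were 0.0615 to 0.222 CPM. The deposited eWAT table holds FPKM, and its read depth is unknown. A further deposited table of the eWAT libraries holds TPM and served as an alternative, although its changes disagreed with those of the FPKM values. A last table of the eWAT libraries was not used. Symbols, lengths and coordinates came from GENCODE M21 (GRCm38) and covered 92.0% of identifiers (96.0% in ieWAT).

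Each depot was fitted alone with limma 3.58.1 (R 4.3.3, trend and robust options, two-sided) on log2(value + 1), which understates the changes of low genes. A gene was tested if it reached 1 CPM or FPKM in at least the number of libraries that the smaller group holds. Benjamini-Hochberg adjustment ran over all genes tested, with a threshold of 0.05. EdgeR 4.0.16 and DESeq2 1.42.0 were run on the recovered reads as alternatives. A nuclear gene was taken as a copy when at least 90% of its 31-base words occurred in a mitochondrial gene. Adding copies, weighted by length in eWAT, was chosen after seeing the data. The members and gene lists were chosen with earlier results of these data known. All protein and rRNA genes may be named, with library values for 8 of them (mt-Rnr1, mt-Rnr2, mt-Co1, mt-Co2, mt-Atp8, mt-Nd6, mt-Nd4l, mt-Cytb) and for any past a threshold. Of each nuclear list up to 4 genes past the threshold with the smallest p are named, as well as Tfam, Polrmt, Lrpprc, Ppargc1a, Cox4i1, Sdha and Atp5b. Genes called by DESeq2 from these lists, and mt-Nd5 values, were named after their values were seen. In ieWAT, isWAT, sWAT and BAT, libraries of a group differed beyond sampling noise. In eWAT, without reads, only identical nonzero values were counted, 0% in each pair within a group. No library was counted as a duplicate. The fits were tested on simulated data. Alternatives were pseudocounts of 0.5 and 0.1, other filters, TMM and nuclear-gene scaling, eBayes without its options, the replicate number as a block, and leaving out each library.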

Additional observations from a re-analysis of the deposited data

How the results depend on the processing

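Median changes of the 15 genes stayed positive in every depot under each other pseudocount, filter, scaling and tool, with or without copies, at 0.13 to 0.33 in BAT, 0.38 to 0.48 in sWAT, 0.25 to 0.28 in isWAT, 0.088 to 0.16 in ieWAT and 0.55 to 0.69 in eWAT. Without each library in turn, with or without copies, the median ran from 0.027 to 0.23 in BAT, 0.29 to 0.51 in sWAT, 0.063 to 0.43 in isWAT (0.063 without the first knockout library), -0.016 to 0.33 in ieWAT and 0.34 to 0.79 in eWAT (0.37 as deposited without the second library labelled knockout). The change in share ran from 1.20 to 15.2% in BAT, 20.7 to 45.5% in sWAT, 6.36 to 36.2% in isWAT (6.80% as deposited without the first knockout library), -0.511 to 28.9% in ieWAT and 27.6 to 66.8% in eWAT. Genes called ran from 0 to 2 in sWAT (1 as deposited and 2 with copies without the first knockout library) and 0 to 3 in eWAT, and were 0 in each of these fits for the other depots. Without the second control library the ieWAT median was -0.016, as deposited and with copies added. DESeq2 called 2 genes in isWAT, as deposited and with copies added, and 5 and 3 in sWAT. The change in sWAT share was 3.72% without both knockout libraries with muscle transcripts. In BAT the median was 0.33 with TMM, 0.32 with edgeR and 0.32 with DESeq2, and 0.33 and 0.32 by these 2 tools with copies added. The BAT share change was 32.0% for rRNAs alone, 22.9% with size factors of the nuclear genes and 23.9% with those and copies added. In eWAT 0 genes were called with no filter, 2 with a mean of at least 5, 2 with scaling to nuclear genes, and 0 in the TPM table, where the median was 2.07. The eWAT share change was 21.7% for rRNAs alone. For these alternatives the cause was not tested.

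Single genes reversed as follows. In isWAT without the first knockout library, mt-Rnr1 was at -0.18 (0.33 at most without another library), mt-Rnr2 at -0.14 (0.36 at most) and mt-Co2 with its copy at -0.0012. There mt-Nd6 was at 0.063 without the third control library and 0.031 without the second knockout library, as deposited and with copies, and at -0.50 without the first. In sWAT mt-Nd2 was at -0.00038 without the second knockout library and 0.45 without the first. In eWAT mt-Nd6 was at -0.27 without the second library labelled knockout and 0.74 without the first, and in the TPM table mt-Atp8 was at -3.39, mt-Co3 at -0.51 and mt-Nd6 at -0.62.

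Libraries of the same number did not deviate together: correlations of their deviations ran from -0.561 to 0.390, and the numbers only name the libraries. With the replicate number as a block, limma called 0 of the 15 genes in every depot, and of all eWAT genes it called 0 in place of 2041. The isWAT median was 0.32, the BAT median 0.027, and mt-Nd6 in isWAT was at 0.063. The eWAT depth is unknown, and in the other depots mt-Nd6 in white fat, at a few CPM, was the gene most limited by depth.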
